A study of Mus musculus with 3 samples.

Results

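The aldehyde dehydrogenase genes described here are Aldh1a1, Aldh1a2, Aldh1a3, Aldh2, Aldh3a1, Aldh3a2, Aldh3b1, Aldh5a1, Aldh7a1 and Aldh9a1, which were taken by gene name from the probe annotation of the arrays. These 10 genes had 13 probes of the 41174 measured, each spotted 1 time per array. Aldh5a1 was chosen by its place near the top of a table of fold changes that the authors computed, which holds their own comparison and was not used here, and the other genes were taken as its family. The Aldh5a1 values are therefore given as a description with no test, and counts over the family cover the other 9 genes and 12 probes. RNA came from EpH4-PR cells grown in DMEM with serum. EpH4 is a line of mammary epithelium from the mouse, and EpH4-PR are clones selected after transfection with the A isoform of the progesterone receptor (PR-A). On each of 3 Agilent whole mouse genome arrays this RNA was labelled with Cy5 and hybridised together with a commercial mouse reference RNA (Stratagene mouse standard) labelled with Cy3, without a dye swap. Whether the 3 arrays came from separate cultures is not stated, so that the p-values measure only the spread between these arrays, which may be technical. Arrays of the vector control cells (EpH4-EV) were not analysed here. Every ratio below is a level in EpH4-PR cells relative to the reference RNA, measured with 1 dye orientation, and is not an effect of PR.

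Aldehyde dehydrogenases oxidise aldehydes to carboxylic acids with NAD or NADP as cofactor. The Aldh1a enzymes turn retinaldehyde into retinoic acid, and their activity is widely used to mark progenitor-rich populations of mammary epithelium. Other members clear acetaldehyde, fatty aldehydes and products of lipid peroxidation, or complete steps in the breakdown of GABA, lysine and carnitine precursors.

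Sequences upstream of the members at both ends of the order are shown because Aldh1a1 and Aldh5a1 had the lowest and the highest ratio of the 10 genes over the reference RNA. RefSeq (GRCm38.p6) windows of 300 bases, from 250 before to 50 after a transcription start, were at hand for 6 of the 10 genes. The Aldh1a1 window lies on the plus strand at chr19:20601718-20602017 and the Aldh5a1 window on the minus strand at chr13:24937612-24937911, both written 5′ to 3′ with capitals at motif matches.
Aldh1a1: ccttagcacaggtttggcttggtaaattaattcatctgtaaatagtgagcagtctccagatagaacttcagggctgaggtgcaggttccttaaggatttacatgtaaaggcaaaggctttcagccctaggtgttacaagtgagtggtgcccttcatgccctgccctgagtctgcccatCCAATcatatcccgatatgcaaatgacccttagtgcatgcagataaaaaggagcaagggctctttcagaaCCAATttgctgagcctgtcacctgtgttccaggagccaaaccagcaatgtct
Aldh5a1: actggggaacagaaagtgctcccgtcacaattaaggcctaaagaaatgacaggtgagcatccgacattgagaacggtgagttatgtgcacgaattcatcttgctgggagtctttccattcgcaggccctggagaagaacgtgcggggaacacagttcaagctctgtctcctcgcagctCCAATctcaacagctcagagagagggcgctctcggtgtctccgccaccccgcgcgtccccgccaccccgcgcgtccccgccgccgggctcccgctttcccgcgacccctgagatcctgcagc
The capitals mark CCAAT boxes (CCAAT on either strand), which were present in 5 of 7 windows of these genes and in 37.4% of all 32851 windows. The Aldh1a1 window holds 47.0% G and C with 1 CpG, and the Aldh5a1 window 60.3% with 24 CpG, beside a median of 52.7% over all windows. A second Aldh1a1 start in the table held none of the motifs searched. The progesterone receptor core hexamer TGTTCT was found on either strand in 0 of the 7 windows and in 19.0% of all windows. The retinoic acid receptor core hexamer AGGTCA was found in 1 of 7, that of Aldh3b1, and in 16.3% of all windows. The antioxidant response core TGACNNNGC was found in 2 of 7, those of Aldh1a2 and Aldh9a1, and in 12.4% of all windows. The GC box GGGCGG was found in 2 of 7 and in 35.7% of all windows, and TATAAA in 0 of 7 and 13.6%. These are matches of letters in a short window and were not related to the ratios.

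Ratios are given as log2 of EpH4-PR over reference RNA, after background correction and loess normalization within each array. A probe passed the test when its adjusted p from limma (Benjamini-Hochberg over all 41174 probes) was under 0.05, and it was called higher or lower when the log2 ratio was also at least 1 in size. Of the 12 tested probes 0 were called higher and 1, that of Aldh1a1, was called lower, beside 2.26% and 3.83% of all probes. Without the limit on size, 3 of the 12 passed as higher and 3 as lower, beside 25.7% and 24.6% of all probes. The median log2 ratio of the 12 probes was 0.05, and that of all probes was -0.0094. Under this processing the family as a whole thus lay close to the median of all probes. With a background offset of 0, the scanner software's ratio and median centring, the median of the 12 probes was 0.24, 0.20 and 0.22. That of all probes was then 0.0038, 0.0423 and -0.0122. What follows describes the single members.

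In raw intensity, the local background around spots (medians of 42 to 43 in Cy5 and 39 to 43 in Cy3) lay below the negative control spots, whose medians were 57.3 to 74.1 in Cy5 and 91.8 to 121 in Cy3. The 95th percentile of the 314 negative control spots was 85.9, 87.4 and 62.9 in Cy5 and 162, 168 and 107 in Cy3 on replicates 1, 2 and 3. A probe marked by the scanner software as well above background could therefore still be within the range of the negative control spots, and both measures are given below. None of the 13 probes was saturated on any array.

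**Figure D1:**
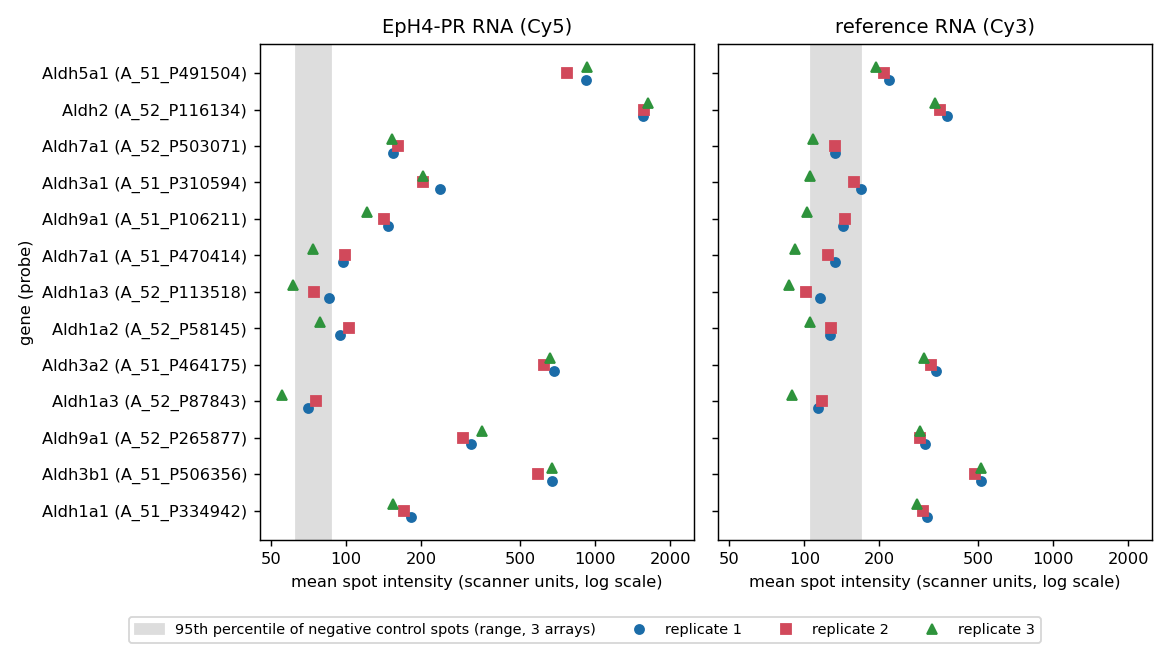
Raw mean spot intensity of the 13 aldehyde dehydrogenase probes in the EpH4-PR channel (left) and the reference channel (right), on a log scale in scanner units, with 1 point per array and the range of the 95th percentile of negative control spots over the 3 arrays in grey. The probes of Aldh2, Aldh3a2, Aldh3b1 and Aldh5a1 were far above the grey band in the EpH4-PR channel, and both Aldh1a3 probes were not above it on any array.

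Among the retinaldehyde dehydrogenases, Aldh1a1, a cytosolic enzyme of retinoic acid synthesis, had the lowest ratio of the 10 genes. Its probe (A_51_P334942) had a raw intensity of 182, 171 and 154 in EpH4-PR RNA and of 312, 300 and 284 in reference RNA on replicates 1, 2 and 3. It was above the 95th percentile of negative control spots in both channels on all 3 arrays. Its log2 ratio was -1.49, -1.51 and -1.72, so that every array lay below those of the 9 other genes. The mean of -1.57 ± 0.13 (SD, n = 3) amounts to a level 2.97-fold lower than in the reference RNA (standard error 0.06 log2 units, adjusted p = 5.6e-05 from limma). With median centring in place of loess the ratio was -0.84, still past the test but inside the limit of 1 log2 unit. The probe sequences were not used here, and whether the Aldh1a1 probe also binds its close paralog Aldh1a7 was not tested.

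Aldh1a2, the retinaldehyde dehydrogenase known for its role in the embryo, gave log2 ratios of 0.07, 0.12 and -0.16, which span 0. Its raw EpH4-PR intensity of 94.3, 103 and 78.9 was above the 95th percentile of negative control spots on all 3 arrays, and its reference intensity was above it on 0 of them. No difference from the reference RNA was detectable at these intensities (adjusted p = 0.93 from limma). With the median in place of the mean spot intensity the probe passed the test at 0.16 (adjusted p = 0.039 from limma), the lowest of its alternatives, whose highest was 0.999.

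Aldh1a3, the retinaldehyde dehydrogenase most often linked to luminal progenitor activity in the breast, had 2 probes, and neither exceeded the 95th percentile of negative control spots in either channel on any array. The probe A_52_P87843 was not well above background in any channel, with raw EpH4-PR intensities of 70.6, 75.6 and 55.3. The probe A_52_P113518 was well above background in EpH4-PR RNA on 1 of 3 arrays and in reference RNA on 2 of 3. Their log2 ratios of -0.12 ± 0.02 and 0.10 ± 0.11 (SD, n = 3) are therefore no measured levels, and no fold is given.

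Aldh2, the mitochondrial enzyme that oxidises acetaldehyde, was the highest of the 12 tested probes under loess, although with the scanner software's ratio both Aldh7a1 probes (1.33 and 1.23) lay above it (1.09). Its probe (A_52_P116134) read 1555, 1567 and 1634 in EpH4-PR RNA and 375, 350 and 336 in reference RNA. The log2 ratio was 0.88, 1.03 and 1.02 on replicates 1, 2 and 3, above those of every other tested member on each array. The mean of 0.98 ± 0.09 (SD, n = 3) is a level 1.97-fold higher than in the reference RNA (standard error 0.05, adjusted p = 0.00012 from limma), just inside the limit of 1 log2 unit. Without replicate 1 the ratio was 1.03, and it was 1.05 with offset 0, 1.09 with the scanner software and 2.18 with median centring. In each of these it was past that limit and called higher.

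The Aldh3 enzymes act on medium- and long-chain aldehydes, and 3 of them were among the genes described. Aldh3a1, best known as an abundant protein of the cornea, had log2 ratios of 0.20, 0.15 and 0.65, and replicate 3 stood apart from the other two. Its mean of 0.33 ± 0.28 (SD, n = 3) missed the test (adjusted p = 0.056 from limma), and its reference intensity was above the 95th percentile of negative control spots on 1 of 3 arrays. Without replicate 3 the ratio was 0.17 and passed (adjusted p = 0.040 from limma, within 0.00011 to 0.27 over its alternatives, the methods' t-test included). It also passed with the median spot intensity (0.57) and with median centring (0.82), but not with offset 0 (0.61) or the scanner software's ratio (1.06), and the intensity trend and the negative control background passed it at about the main ratio (0.33 and 0.36).

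Aldh3a2, the fatty aldehyde dehydrogenase of the endoplasmic reticulum, had raw intensities of 686, 626 and 658 in EpH4-PR RNA against 338, 321 and 303 in reference RNA. Under loess it was at the level of the reference RNA, with log2 ratios of 0.01, -0.0087 and 0.0005. The mean was 0.0018 ± 0.011 (SD over 3 arrays; adjusted p = 0.97 from limma), the smallest spread of the 13 probes. Under median centring the same probe lay at 1.06 and was called higher.

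Aldh3b1, which also acts on lipid-derived aldehydes, was lower than the reference RNA under loess, with log2 ratios of -0.78, -0.83 and -0.86. The mean was -0.83 ± 0.04 (SD, n = 3, 1.77-fold lower, adjusted p = 0.00012 from limma). Under median centring the ratio of Aldh3b1 was 0.30 and passed the test as higher (adjusted p = 0.00066 from limma). Its raw intensity was 672, 593 and 672 in EpH4-PR RNA and 514, 483 and 512 in reference RNA, above the negative control spots in both channels. Under loess each array of Aldh3b1 lay below each array of Aldh3a2, and each array of Aldh3a2 below each array of Aldh3a1, although under median centring the mean of Aldh3a2 (1.06) was above that of Aldh3a1 (0.82).

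**Figure D2:**
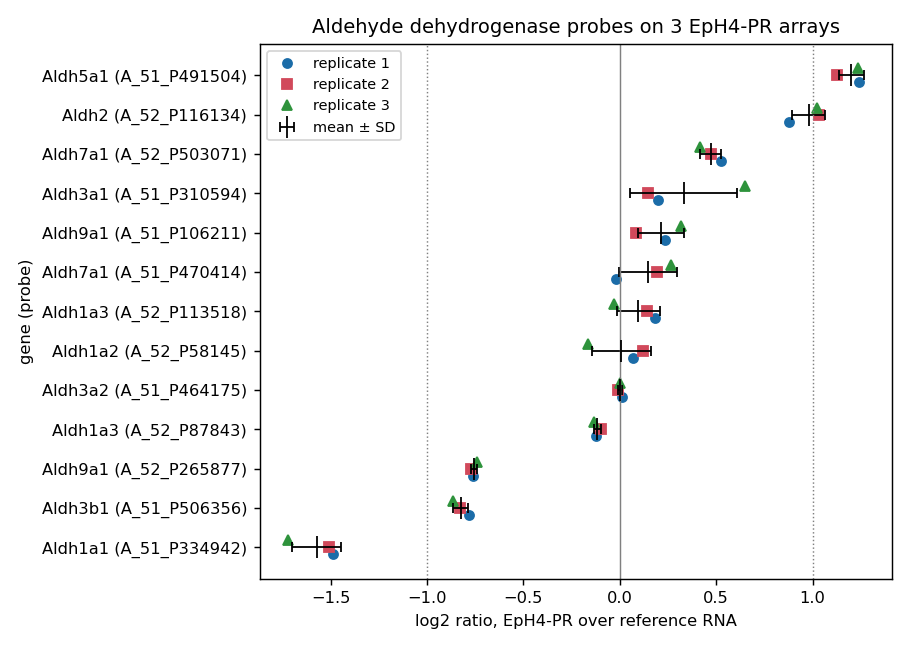
Log2 ratio (EpH4-PR to reference) for each of the 13 probes after loess, with 1 coloured point per array and the mean ± SD of 3 arrays in black. Aldh1a1 lay near -1.57 and Aldh5a1 near 1.20, and dotted lines mark 1 log2 unit either way.

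Aldh5a1, Aldh7a1 and Aldh9a1 act on aldehydes derived from amino acids. Aldh5a1 is the mitochondrial succinate semialdehyde dehydrogenase, the last step of GABA breakdown. Its probe (A_51_P491504) read 922, 775 and 931 in EpH4-PR RNA and 219, 208 and 195 in reference RNA, above the 95th percentile of negative control spots on all 3 arrays in both channels. The log2 ratio was 1.24, 1.13 and 1.24, a mean of 1.20 ± 0.06 (SD, n = 3), which is 2.30-fold above the reference RNA and at percentile 98.7 of all probes. Every array of Aldh5a1 lay above every array of Aldh2, the next member. Over the alternative runs, several of which reuse the main ratio, it ranged from 1.18 without replicate 1 to 2.22 with median centring. Since Aldh5a1 was chosen for its place near the top of the authors' fold changes, this range is a description only.

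Aldh7a1, the antiquitin enzyme of lysine breakdown, had 2 probes. The probe A_52_P503071 gave log2 ratios of 0.52, 0.47 and 0.42, a mean of 0.47 ± 0.05 (SD, n = 3, 1.39-fold higher, adjusted p = 0.00088 from limma). It stayed above 0 and past the test in each alternative run, several of which reuse the main ratio. Its ratio rose to 0.97 with offset 0 and to 1.23 with the scanner software's ratio, where it was called higher. The probe A_51_P470414 gave -0.02, 0.19 and 0.26, a mean of 0.15 ± 0.15 (SD over 3 arrays; adjusted p = 0.13 from limma). In reference RNA the first was above the 95th percentile of negative control spots on 1 of 3 arrays and the second on 0, so that the size of the ratio is limited by the reference channel. The first probe lay above the second on every array under loess, although with the scanner software's ratio it lay below (1.23 against 1.33).

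Aldh9a1, which oxidises trimethylaminobutyraldehyde on the way to carnitine, had 2 probes that disagreed in direction under loess but not under median centring. The probe A_52_P265877 lay below 0 under loess, at -0.76, -0.77 and -0.74. The mean was -0.76 ± 0.02 (SD, n = 3, 1.69-fold lower, adjusted p = 0.00013 from limma). Under median centring this probe was at 0.13 and passed the test as higher (adjusted p = 0.034 from limma). The probe A_51_P106211 lay above 0, at 0.24, 0.08 and 0.32, a mean of 0.21 ± 0.12 (SD over 3 arrays; adjusted p = 0.035 from limma). This second probe stayed above 0 in each alternative (0.16 to 0.82), several of which reuse the main ratio, but not always past the test. Its adjusted p from limma was 0.13 without replicate 1 and 0.082 without replicate 3. Over its alternatives the adjusted p ranged from 0.00052 to 0.17, the highest from the methods' t-test after Benjamini-Hochberg adjustment. Under loess the difference between the probes was 1.00, 0.86 and 1.06 log2 units on the 3 arrays. An exact two-sided sign permutation test of it gave p = 0.25, the smallest value that 3 arrays allow. Under median centring the means were 0.13 for the lower probe and 0.36 for the higher. Raw intensities of the lower probe were 316, 294 and 350 in EpH4-PR RNA and 304, 291 and 292 in reference RNA. Those of the higher probe were 148, 142 and 121 in EpH4-PR RNA and 144, 146 and 103 in reference RNA, and its reference intensity was above the 95th percentile of negative control spots on 0 of 3 arrays. Both probes carry the same RefSeq accession, and why they differ was not tested.

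In the order of mean ratios under loess, from Aldh1a1 up to Aldh5a1, there were 12 neighbouring pairs of probes, and in 6 of them the values of the 3 arrays overlapped. All 6 fell in the middle of the order, from Aldh3a2 to the higher Aldh7a1 probe, where Aldh1a2, Aldh1a3, Aldh3a1 and the higher Aldh9a1 probe could not be placed relative to their neighbours. The ends of the order, with Aldh1a1, Aldh3b1 and the lower Aldh9a1 probe below and Aldh2 and Aldh5a1 above, did not overlap with their neighbours. Unlike the counts of tested probes, the pairs include Aldh5a1. It was chosen for its place near the top of the authors' fold changes, so its place here is a description only. This order is that of loess, since under median centring Aldh3b1 (0.30) and the lower Aldh9a1 probe (0.13) lay above Aldh1a2 (-0.12) and both Aldh1a3 probes (-0.13 and -0.35), and with the scanner software's ratio Aldh2 lay below both Aldh7a1 probes. Aldh1a1 was the lowest and Aldh5a1 the highest of the 13 probes in loess, offset 0, the scanner software's ratio and median centring.

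The normalization moved the brighter probes most. Over all probes with a mean EpH4-PR intensity of 300 to 1000, the median log2 ratio was 0.10 after loess and 1.03 after median centring, while for those under 100 it was -0.05 and -0.26. Brighter members moved upward accordingly, and Aldh3b1 and the lower Aldh9a1 probe changed sign. Aldh1a1 stayed below the reference RNA, and Aldh2, Aldh5a1 and the higher Aldh7a1 probe stayed above it, under each of the 4 ways of processing plotted here. Aldh3a1 (0.33, 0.61, 1.06 and 0.82) and the higher Aldh9a1 probe (0.21, 0.48, 0.82 and 0.36) also stayed above it, though not past the test in each. The lower Aldh1a3 probe, which is no measured level, stayed below 0.

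**Figure D3:**
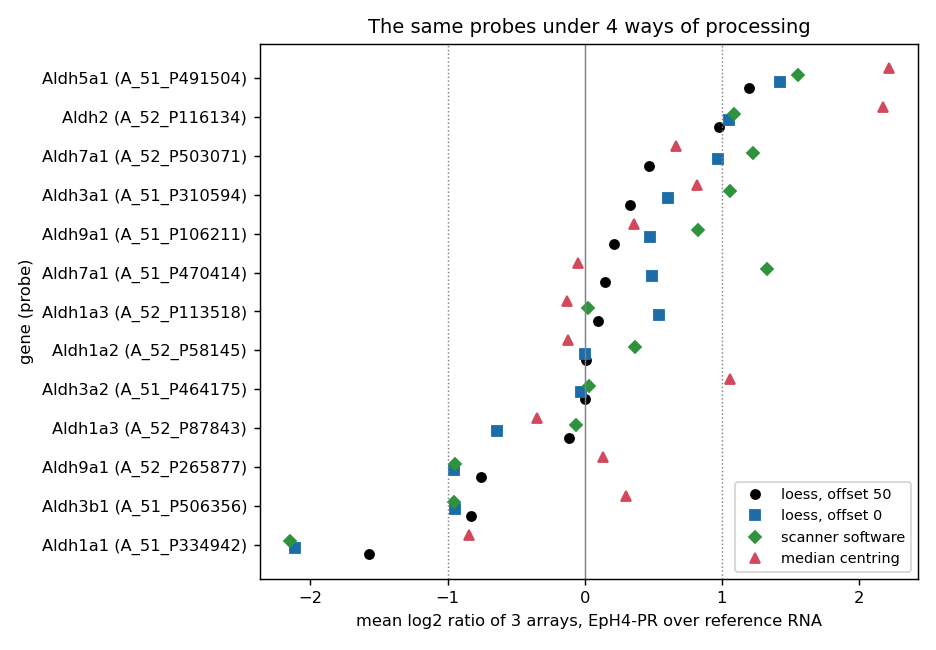
Mean log2 ratio of 3 arrays for the 13 probes under loess with a normexp offset of 50 (the values in the text), loess with an offset of 0, the log ratio of the scanner software, and median centring. The Aldh1a1 points all lie below 0, from -2.15 to -0.84, and the Aldh2 points all lie above 0, from 0.98 to 2.18.

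Of 10 other aldehyde dehydrogenase genes, 9 had a probe, and of these 0 were called higher and 2 were called lower. Over all probes 2.26% were called higher and 3.83% lower. That share is by probe, while this list and those below are counted by gene, with any of its probes sufficient. Aldh1l2, the mitochondrial formyltetrahydrofolate dehydrogenase, had a log2 ratio of -2.12, -2.07 and -2.32 by the probe A_52_P498193, a mean of -2.17 ± 0.13 (SD over 3 arrays; adjusted p = 3.0e-05 from limma). Its second probe was at -0.30 ± 0.05 (SD, n = 3). Aldh6a1, the mitochondrial methylmalonate semialdehyde dehydrogenase of valine breakdown, had log2 ratios of -1.98, -1.80 and -2.28, a mean of -2.02 ± 0.24 (SD over 3 arrays; adjusted p = 9.3e-05 from limma). Both stayed past the limit of 1 log2 unit under median centring, Aldh6a1 at -1.64. Aldh4a1, a proline-pathway enzyme of the mitochondria, had 1 probe at -0.40 that passed the test, although it lay at 0.44 under median centring, and 1 at 0.06 that did not. Aldh1a7, Aldh1b1, Aldh1l1, Aldh8a1, Aldh16a1 and Aldh18a1 lay between -0.19 and 0.20 and did not pass.

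Retinoic acid synthesis and response was covered by 16 of 17 listed genes. Of these 0 were called higher and 2 were called lower, beside 2.26% and 3.83% of all probes. Without the limit on size 3 genes passed as higher, 6 as lower and 2 in both directions by different probes. Of all probes 25.7% passed as higher and 24.6% as lower, so that many genes of any list would pass. Crabp1, a cellular retinoic acid binding protein, had a log2 ratio of -2.14 ± 0.12, while Crabp2, the binding protein that delivers retinoic acid to nuclear receptors, had one of 0.86 ± 0.18 (SD over 3 arrays for each; adjusted p = 2.6e-05 and 0.00068 from limma). Dhrs3, which reduces retinaldehyde back to retinol, passed as lower with both probes, at -0.87 and -1.83. Stra6, a membrane receptor for retinol uptake, passed as lower at -0.98 ± 0.18 (SD over 3 arrays; adjusted p = 0.00045 from limma), although it was at -0.15 under median centring. Rdh10, which makes the retinaldehyde that Aldh1a enzymes use, passed as higher with both probes, at 0.34 and 0.49. The 2 probes of the receptor gene Rarg passed in opposite directions, at 0.53 and -0.57. The reference intensity of Crabp2 and of the higher Rarg probe was above the 95th percentile of negative control spots on 0 of 3 arrays. The ratio of Crabp2 was 2.37 with offset 0 and 2.27 with the scanner software. Signs of all these probes were the same under median centring.

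Around Aldh5a1, Aldh7a1 and Aldh9a1, 7 genes of GABA, lysine and carnitine metabolism had a probe, and 0 were called higher and 1 lower. The share called of all probes, by probe and not by gene, was 2.26% higher and 3.83% lower. Abat, which makes the succinate semialdehyde used by Aldh5a1, had a log2 ratio of -2.76, -2.62 and -2.69 by the probe A_51_P241101, a mean of -2.69 ± 0.07 (SD over 3 arrays; adjusted p = 1.4e-05 from limma). Its 3 other probes were not well above background in EpH4-PR RNA on any array. Without the limit on size, 3 genes of this list passed as higher and 1 as lower, beside 25.7% and 24.6% of all probes. Tmlhe, the first enzyme of carnitine synthesis, passed as higher with all 3 probes, at 0.26, 0.34 and 0.67. Aass, the first enzyme of lysine breakdown, passed at 0.23. Gad1 passed at 0.21 by the probe A_52_P144310, although it was at -0.03 under median centring, and its other probe at -0.05 did not pass. Of 5 alcohol dehydrogenase genes with a probe none was called (0 higher and 0 lower by limma). In this list 1 gene passed the test as higher and 3 passed as lower, beside 25.7% and 24.6% of all probes. Among them Adh5 lay at -0.61, although it was at 0.83 under median centring. Of 9 aldo-keto and carbonyl reductases, Akr1b3, the aldose reductase, was called higher by 2 probes at 2.54 ± 0.09 and 2.60 ± 0.11, and Cbr3 was called lower at -2.69 ± 0.18 (SD, n = 3 for each). The third Akr1b3 probe was not well above background in EpH4-PR RNA on any array.

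**Figure D4:**
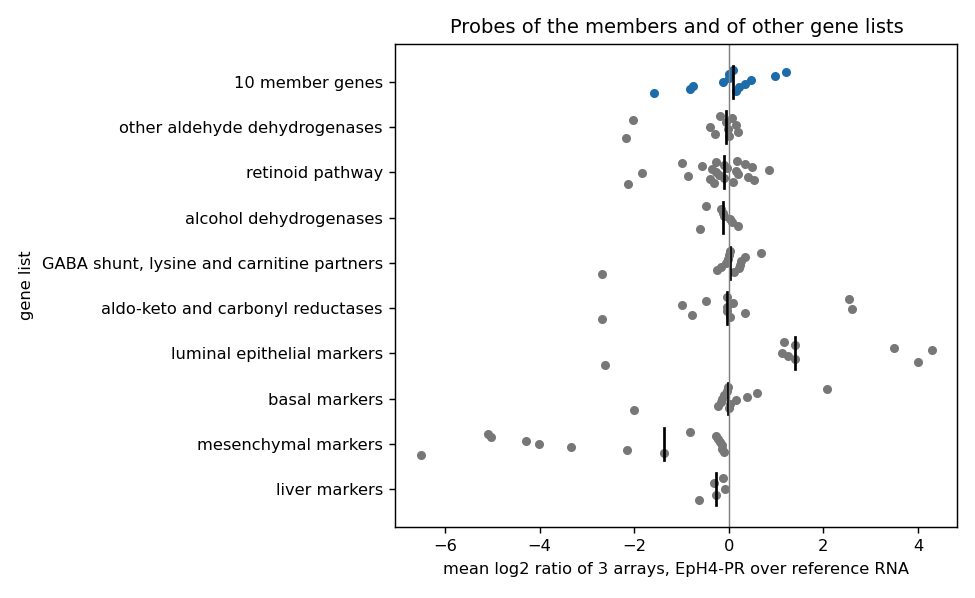
Mean log2 ratio of 3 arrays (EpH4-PR to reference) of every probe of the 10 members, in blue, and of the other gene lists, in grey, with a black line at the median over probes. The members lay between -1.57 and 1.20, inside the range of the luminal marker probes (-2.62 to 4.29). The mesenchymal marker probes lay between -6.51 and -0.09.

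Markers of the labelled cell type were checked in the same ratios. Their counts are by gene, while 2.26% of all probes were called higher and 3.83% lower. Of 8 luminal epithelial marker genes 7 were called higher than the reference RNA, among them Cdh1 (4.29), Krt7 (3.99) and Cldn3 (3.49), while Krt19 was called lower (-2.62). Of 8 mesenchymal genes 7 were called lower, led by Vim (-6.51), Col3a1 (-5.10) and Col1a1 (-5.03), and 0 were called higher. Of 7 basal genes 1, Krt14, was called higher (2.08) and Acta2 was called lower by 1 of its 4 probes (-2.01), which was well above background in EpH4-PR RNA on 1 of 3 arrays, while another lay at 0.60. Of 5 liver genes with a probe 0 were called by limma, and 2 passed the test as lower, Alb at -0.62 and Ttr, which was not well above background in EpH4-PR RNA on any array. The cell types behind the reference RNA are not given in the sources used here, and their part in the ratios of the aldehyde dehydrogenases was not tested.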

How the data were processed

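RNA of EpH4-PR cells (Cy5) and a commercial mouse reference RNA (Cy3) were measured on 3 arrays with both dyes. Of each array the authors deposited Agilent Feature Extraction 8.1.1.1 files that list, for 43790 spots, raw intensity per channel, local background and quality marks, beside the log10 of the dye ratio (red to green) as normalized by that software. A table of the authors' own comparison (log10 ratio, ratio, fold change, p-value and intensities of 2 unnamed sides) was not used here beyond its part in the choice of Aldh5a1. Mean spot intensity was corrected with normexp (offset 50) and normalized by loess (span 0.3) within each array in R 4.3.3 with limma 3.58.1; control spots and spots marked as outliers (150, 18 and 3) were left out. Each probe's log2 ratio was tested against 0 (lmFit, eBayes) over all 41174 probes. The offset pulls the ratios of dim probes toward 0. On simulated arrays of all 41174 probes with 200 changed by 1.5 log2 units, 100% were found and 0 unchanged probes were called. That size lay past the limit of 1 log2 unit, and standard errors of the 13 member probes were only 0.04 to 0.11. The simulation could therefore hardly fail, and it does not show how well smaller ratios are found. It also does not bear on the choice of normalization, where the share called higher was 2.26% under loess and 17.1% under median centring. Precision is limited by the number of arrays.

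Members and lists were chosen with earlier results of these data known, as were the tests; the genes named are all members, the other Aldh genes and the called or extreme genes of each list. A few further list genes (Crabp2, Stra6, Rdh10, Rarg, Tmlhe, Aass, Gad1, Adh5, Alb and Ttr) were named after their values were seen. List genes were matched by the name in the file or by RefSeq accession in a gene table of GRCm38.p6, which gave a symbol for 21437 of 23705 probes with an accession, and for 12 of the 13 member probes the same symbol as the file. Alternatives covered background, normalization, scaling between arrays, spot summary, outlier spots, dim probes, moderation, the methods' t-test and each array left out. Those in scaling between arrays, dim probes, moderation and t-test reuse the main ratios, so that no ratio could move there. The methods' t-test was run with and without Benjamini-Hochberg adjustment. A gene of the retinoid list is not reported here and was left out of the list's counts.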

Additional observations from a re-analysis of the deposited data

How the results depend on the processing

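Aldh1a1 stayed below 0 and past the test in all 14 alternatives, as Aldh2 and the higher Aldh7a1 probe stayed above 0. The alternatives in dim probes, moderation, scaling between arrays and t-test reuse the main ratios, so that signs could not change there. Scaling between arrays also left the adjusted p unchanged, and the t-test was run both with and without adjustment. Under median centring Aldh3b1 (0.30), the lower Aldh9a1 probe (0.13), Aldh1a2 (-0.12), the higher Aldh1a3 probe (-0.13) and the lower Aldh7a1 probe (-0.0476) changed sign. Of these, Aldh3b1 and the lower Aldh9a1 probe passed the test there as higher (adjusted p = 0.00066 and 0.034 from limma). Aldh3a2, at 0 within its error under loess, went to 1.06 with median centring (adjusted p = 3.4e-07 from limma), where it was called higher. It went to -0.0235 with normexp offset 0, to -0.0013 with outlier spots kept and to -0.0037 with the negative control background. Without single replicates it ranged from -0.0041 to 0.007. Aldh1a2 went to -0.0002 with offset 0 and ranged from -0.0476 to 0.0942 without single replicates. The count of members called higher (0) was 1 with offset 0, 2 with the scanner software, 2 with median centring and from 0 to 1 without single replicates, where replicate 1 decides Aldh2. The count called lower (1) was 0 with median centring. The median ratio of the members (0.05) was 0.24 with offset 0, 0.20 with the scanner software, 0.22 with median centring and 0.11 with the median spot intensity. Over the pathway lists, 1 gene called higher became 3, 4 and 7 with offset 0, the scanner software and median centring, and 6 called lower became 10 with the scanner software. The share of all probes called higher was 2.26%, 7.59%, 8.78% and 17.1% in the main processing, with offset 0, the scanner software and median centring, and the share called lower was 3.83%, 9.48%, 9.44% and 1.72%. The causes were not tested. The filter on dim probes removed both Aldh1a3 probes. The negative control background was chosen after seeing the data. No paired analysis was possible because there is 1 group. Dim reference signal limits Aldh1a2, Aldh1a3, Aldh3a1, Aldh7a1 and the higher Aldh9a1 probe.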
